A study of Homo sapiens with 6 samples.

Results

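The ZNF genes are human genes named for a zinc finger protein, each with ZNF and a number as its symbol. Here 178 of them were described, chosen by one rule: the symbol is ZNF followed by digits with an optional last letter, and the gene stood at 2 FPKM or more in all 6 libraries. FPKM is a fragment count scaled by transcript length and by the mapped fragments of the library. The tables held 506 such symbols among 19942 gene symbols, and 2 ZNF genes were left out by name. Of the 326 other ZNF genes, 127 were listed at 0 in all libraries, 82 were above 0 but under 2 FPKM everywhere, and 117 reached 2 FPKM in some libraries only. Members were selected on their FPKM, so none can be low in any library, and a ZNF gene that 1 treatment switched on or off is not among them. ZNF248, ZNF337 and ZNF557 lay just inside the rule, with lowest values of 2.003, 2.07 and 2.08 FPKM, and ZNF823, ZNF165 and ZNF440 just outside it, with 1.997, 1.99 and 1.98 FPKM.

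The libraries are total RNA of HCT116, an established colorectal carcinoma line. The groups, with 1 library each, were 5-fluorouracil-resistant cells with EHMT2 siRNA, with control siRNA and untransfected, and parental cells with EHMT2 siRNA, with control siRNA and untransfected. All 6 are the same line, 4 of them were transfected, and the resistant cells are 1 derived population, of which the labels give no dose or length of exposure. The series speaks of independent replicates, but the 6 libraries available here are 1 per group, each labelled as the first replicate.

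C2H2 zinc fingers are small folds held by a zinc ion, and strung together they read DNA sequence. Many ZNF proteins also carry a KRAB box, which recruits the corepressor TRIM28 and through it SETDB1, a methyltransferase that places H3K9 trimethylation, a mark of silent chromatin. KRAB genes arose by tandem duplication and stand in large clusters on chromosome 19, where H3K9 trimethylation over their own bodies is well known. ZNF proteins without a KRAB box are more varied, and include activators, subunits of chromatin complexes and proteins of RNA and ribosomes. EHMT2, also called G9a, places H3K9 mono- and dimethylation.

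EHMT2 stood at 3.80 FPKM in resistant and 8.58 FPKM in parental cells with EHMT2 siRNA, against 19.5 and 31.7 FPKM with control siRNA and 27.3 and 19.8 FPKM untransfected. It was lowest in both EHMT2 siRNA libraries, and the untransfected libraries order the lines the other way than the control siRNA libraries do. Of 6 colon epithelium markers, 5 were present in every library and VIL1 was listed at 0 in all. With EHMT2 siRNA over control siRNA KRT19 had log2 ratios of -1.83 (resistant) and -1.50 (parental), and KRT18 0.80 and 1.09. Of 6 markers of other cell types, 5 were listed at 0 in all libraries, and COL1A1, a collagen of fibroblasts, stood at 3.35 to 9.79 FPKM, higher with EHMT2 siRNA in both lines. The part of these markers in the results below was not tested, and in RNA of whole cultures a change in the share of cells and a change in RNA per cell cannot be told apart. Summed FPKM ran between 360695 and 446143 per library, highest in the untransfected parental one.

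The members were genes of modest level. Their mean FPKM over the 6 libraries had a median of 5.87, against 12.6 for the 9396 genes that pass the same filter, and 136 members averaged under 10 FPKM. In the proteins of GENCODE 29, 83 members had a KRAB box and 165 had at least 2 C2H2 fingers, with a median of 9 fingers and a maximum of 35. KRAB members had more fingers, with a median of 12 against 7 without the box, and a lower level, with a median mean of 5.09 against 7.19 FPKM. On chromosome 19 lay 49 members, 31 of them with a KRAB box.

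The 5 members of highest mean were ZNF146, ZNF664, ZNF207, ZNF384 and ZNF706. ZNF146, made almost wholly of fingers, stood at 47.4 and 40.1 FPKM in resistant and parental cells with EHMT2 siRNA, 48.3 and 42.5 FPKM with control siRNA, and 41.7 and 61.8 FPKM untransfected. ZNF207, a spindle and BUB3-binding protein, stayed between 41.2 and 47.9 FPKM in all libraries. It was also among the 5 members of smallest range, with ZNF740, ZNF830, ZNF131 and ZNF562. ZNF740 stood at 5.62 to 6.53 FPKM and ZNF830, a splicing-associated protein, at 5.17 to 6.04 FPKM. The range of log2(FPKM + 1) over the libraries had a median of 0.70 for the members and 0.81 for all genes of the filter.

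With EHMT2 siRNA, the median ratio of the ZNF genes as a whole was only a little above that of all genes. The KRAB genes of chromosome 19 stood higher in both lines. Ratios here are log2 of FPKM + 1 with EHMT2 siRNA over that with control siRNA, which understates changes of low genes. Over the 178 members the median ratio was 0.07 in resistant and 0.18 in parental cells, against 0.05 and 0.06 over all genes of the filter. The 31 KRAB members on chromosome 19 had median ratios of 0.46 (resistant) and 0.63 (parental), and 27 and 28 of them were above 0. These 2 medians lay between 0.41 and 0.52 and between 0.54 and 0.77 under the other scalings and pseudocounts. The 585 genes of chromosome 19 with no ZNF symbol had medians of 0.02 and 0.06.

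The other classes lay nearer to the background. The 52 KRAB members on other chromosomes had medians of -0.02 (resistant) and 0.18 (parental). The 18 members of chromosome 19 without a KRAB box had -0.02 and -0.13. The 77 members without a KRAB box elsewhere had 0.03 and 0.10. For scale, the ratio of control siRNA over untransfected libraries had medians of -0.03 and 0.12 for the KRAB members of chromosome 19, and -0.04 and 0.05 for all genes of the filter. The difference between these classes was not tested, since a class of genes gives no replicate of the treatment.

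**Figure D1:**
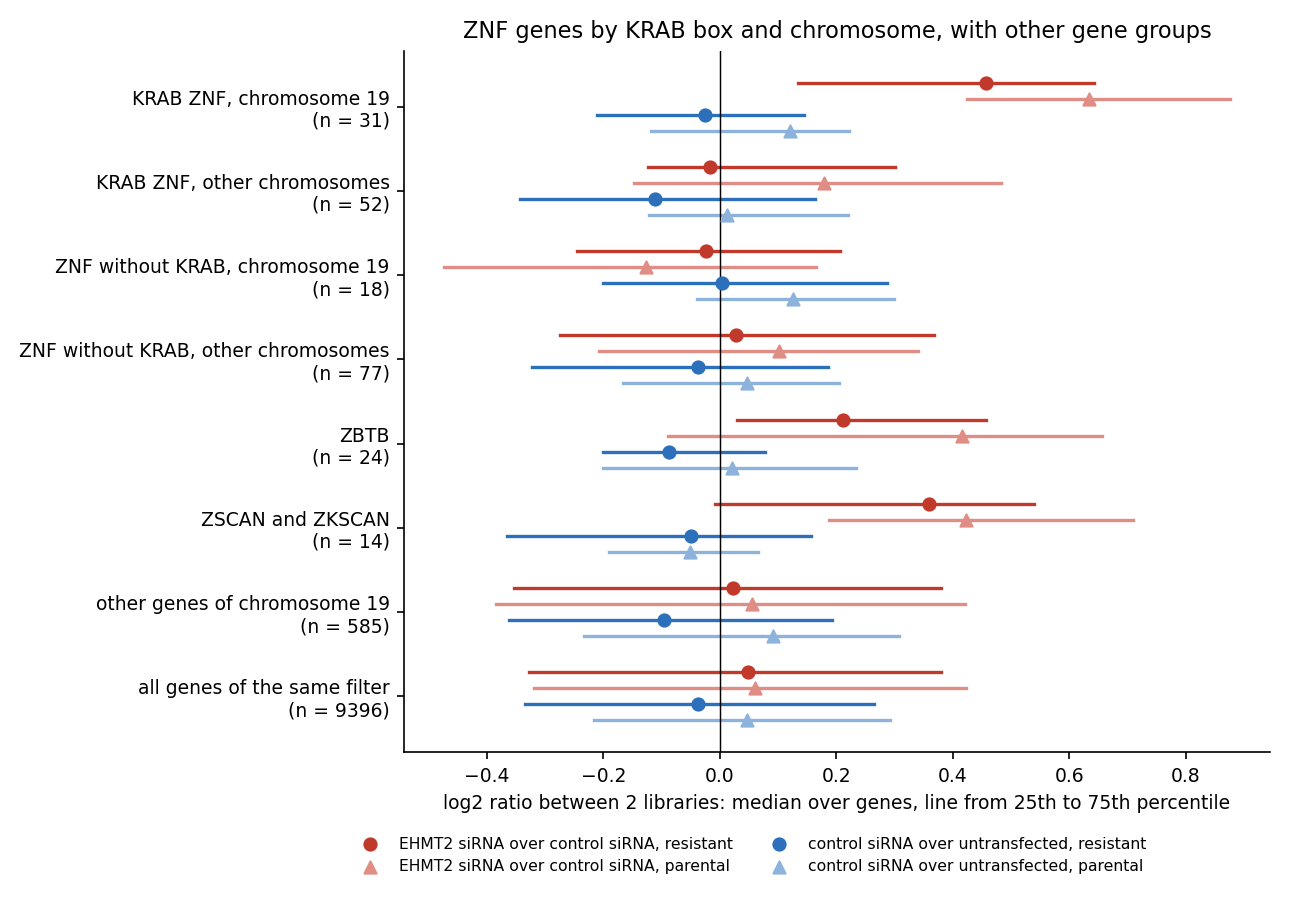
Median log2 ratios of gene groups on the x axis, with lines from the 25th to the 75th percentile of the genes. The KRAB ZNF genes of chromosome 19 sit at 0.46 and 0.63 for EHMT2 siRNA over control siRNA, while their control siRNA over untransfected medians are -0.03 and 0.12, and the other 3 ZNF classes lie between -0.13 and 0.18 for EHMT2 siRNA.

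A pair of fits was made across all genes, with limma on log2(FPKM + 1), and neither has replicate libraries: the error is how far the effect of a treatment differs between the lines. The 6-library fit called 0% of 11521 genes for EHMT2 siRNA at an adjusted p under 0.05, and so 0 members, although 3060 genes and 30 members, 24 of them higher, had an unadjusted p under 0.05. The lowest adjusted p in that fit was 0.0529. The fit to the 4 siRNA libraries alone has 1 residual degree of freedom and called far more, 23.8% of genes as higher and 18.7% as lower. In it 47 members (26.4%) were called higher, close to the background, and 13 (7.3%) lower, a smaller share than the background. Of genes of the filter with a mean under 10 FPKM, 20.1% were called higher and 14.6% lower. Of the members under that mean, 23.5% and 6.62% were. The rule of 2 FPKM in every library limits the share called lower. In what follows, rose and fell are written of members called by this 4-library limma fit, and every adjusted p is from it unless the 6-library fit is named.

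Of the 31 KRAB members on chromosome 19, 17 rose and 0 fell, 54.8% against the 23.8% of all genes. The rule drops a gene that falls under 2 FPKM in any library, which limits the count of 0. Of the 63 KRAB ZNF genes of chromosome 19 with a mean of 2 FPKM or more, 31 were called higher and 3 lower (49.2% and 4.76%). These 63 had median ratios of 0.36 (resistant) and 0.59 (parental). Their mean takes in the EHMT2 siRNA libraries, so a gene low in the other libraries can pass through a rise. This wider set is therefore no independent check. Of the KRAB members elsewhere 10 rose and 2 fell, of the members without KRAB on chromosome 19 2 rose and 3 fell, and of those without KRAB elsewhere 18 rose and 8 fell. A count that takes the untransfected libraries in asks whether both EHMT2 siRNA libraries lie above all 4 others. That held for 61 of the 178 members (34.3%) and 22 of the 31 KRAB members of chromosome 19, against 25% of all genes of the filter. Both EHMT2 siRNA libraries lay below the other 4 for 22 members (12.4%) and for 0 of those 31, against 18.6% of all genes.

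**Figure D2:**
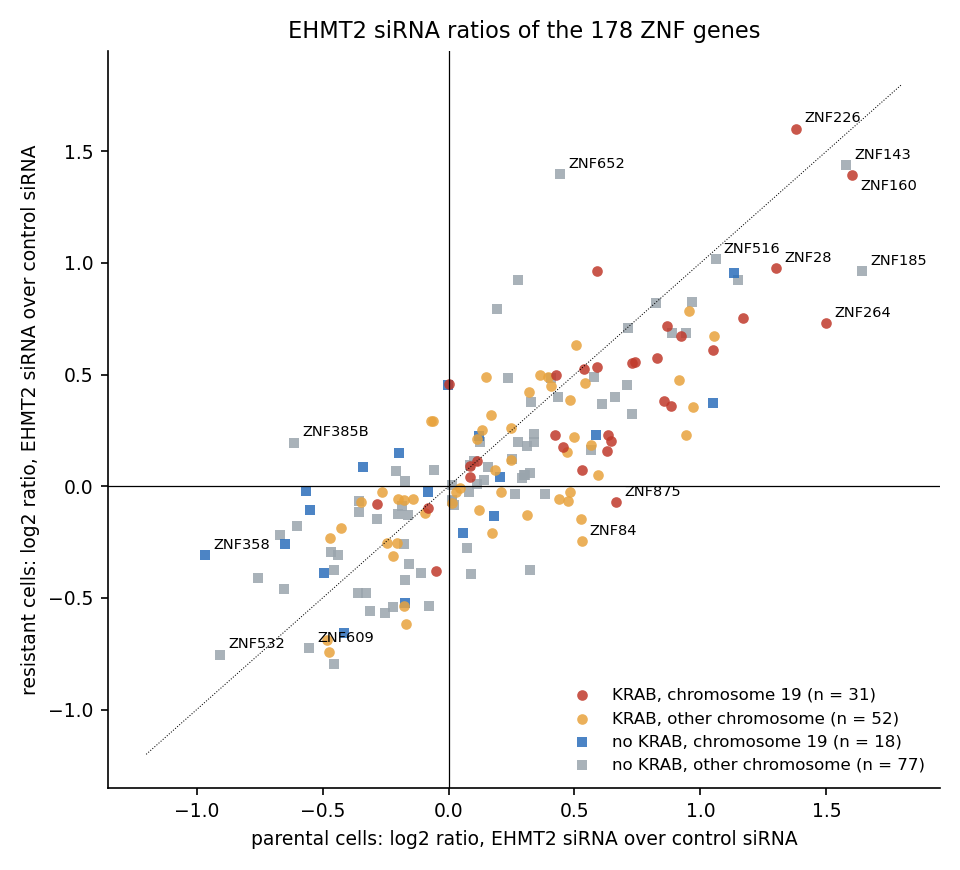
Each point is 1 of the 178 ZNF genes, with its log2 ratio of EHMT2 siRNA over control siRNA in parental cells on the x axis and in resistant cells on the y axis, coloured by KRAB box and chromosome. The dotted line marks equal ratios. Of the 31 KRAB genes on chromosome 19, 27 lie above 0 in both lines.

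The farthest apart was ZNF143, an activator of small nuclear RNA genes and of many promoters, on chromosome 11 at 9460319 to 9528524. It had 22.6 and 23.8 FPKM in resistant and parental cells with EHMT2 siRNA, against 7.72 and 7.30 FPKM with control siRNA and 7.74 and 7.37 FPKM untransfected. The 4 libraries without EHMT2 siRNA were nearly level, and EHMT2 siRNA over control siRNA gave 2.93-fold in resistant and 3.26-fold in parental cells. It rose by a log2 change of 1.51 ± 0.12 (SE; adjusted p = 0.000834), and its adjusted p in the 6-library fit was 0.0529.

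ZNF160, a KRAB protein with 20 fingers on chromosome 19 at 53066606 to 53103436, had 15.1 and 15.3 FPKM in resistant and parental cells with EHMT2 siRNA, against 5.12 and 4.37 FPKM with control siRNA and 3.54 and 3.94 FPKM untransfected. ZNF226, a KRAB protein with 17 fingers on chromosome 19 at 44165073 to 44178381, had 20.2 and 13.2 FPKM with EHMT2 siRNA, against 5.97 and 4.46 FPKM with control siRNA and 5.45 and 5.88 FPKM untransfected. In both genes the EHMT2 siRNA libraries stood clear of the other 4. ZNF160 rose by a log2 change of 1.499 ± 0.14 and ZNF226 by 1.49 ± 0.14 (SE; adjusted p = 0.000981 for each), and both had 0.0529 in the 6-library fit.

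ZNF516, a protein that binds the CtBP corepressor complex, had 8.03 and 6.53 FPKM in resistant and parental cells with EHMT2 siRNA, against 3.46 and 2.61 FPKM with control siRNA and 3.38 and 3.10 FPKM untransfected. Counts of 2-fold differences are on the FPKM + 1 scale unless FPKM itself is named. On it ZNF143, ZNF160, ZNF226 and ZNF516 were the 4 members at least 2-fold higher in both lines, where 2.59% of all genes were. On FPKM itself, with no pseudocount, 10 members were, with ZNF28, ZNF35, ZNF185, ZNF292, ZNF579 and ZNF668 added, where 3.47% of genes were. On the FPKM + 1 scale 5 members were 2-fold higher in resistant and 13 in parental cells, against a background of 3.8% and 5.2%. On that scale 0 members were 2-fold lower in either line, where 3.9% and 3.52% of genes were. The rule itself limits this count, since a member of low control siRNA value could not be 2-fold lower and stay at 2 FPKM. Of the 3792 genes of the filter with a mean under 10 FPKM, 65 in resistant and 77 in parental cells were 2-fold lower. On FPKM itself ZNF358 and ZNF532 were 2-fold lower, in parental cells.

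**Figure D3:**
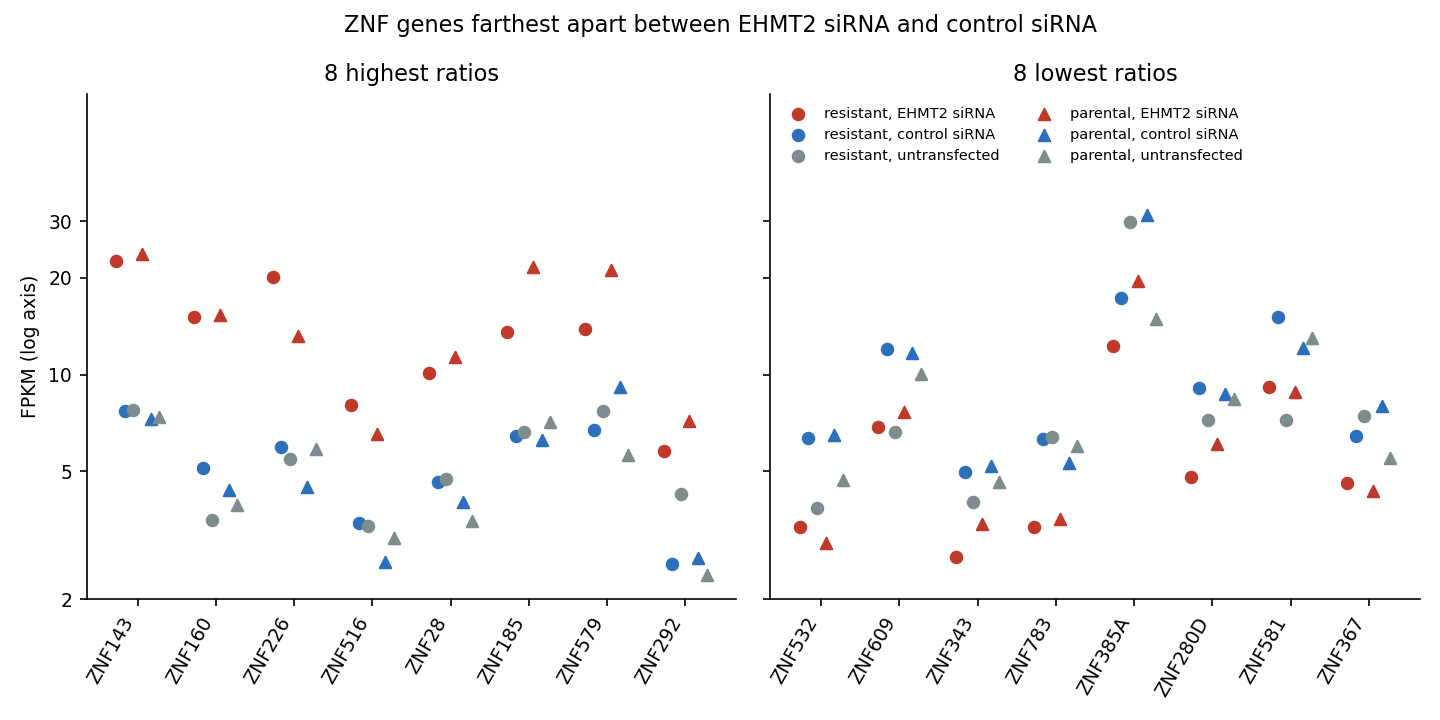
FPKM on a log axis of the 8 ZNF genes with the highest and the 8 with the lowest ratios of EHMT2 siRNA over control siRNA in both lines, 1 point per library. In the 8 on the left both EHMT2 siRNA points lie above all others, as for ZNF143 with 22.6 and 23.8 against 7.30 to 7.74 FPKM, while on the right untransfected points of ZNF609, ZNF385A and ZNF581 reach down to or below the EHMT2 siRNA points.

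Promoters of 4 of the genes that rose are shown, for ZNF143 as the gene of largest change and for 3 KRAB genes of chromosome 19. The 3 have the highest smaller knockdown ratio of both lines among those with a promoter listed. ZNF28 ranks above ZNF587 but had none listed. Promoters of 250 bases before to 50 after the start were in the RefSeq table (GRCh38.p14) for 153 of the 178 members, and are printed 5′ to 3′ on the gene's strand for ZNF143 and 3 KRAB genes of chromosome 19. Capitals mark the ETS core CCGGAAG or its reverse complement CTTCCGG.
ZNF143, chr11:9460762-9461061, plus strand: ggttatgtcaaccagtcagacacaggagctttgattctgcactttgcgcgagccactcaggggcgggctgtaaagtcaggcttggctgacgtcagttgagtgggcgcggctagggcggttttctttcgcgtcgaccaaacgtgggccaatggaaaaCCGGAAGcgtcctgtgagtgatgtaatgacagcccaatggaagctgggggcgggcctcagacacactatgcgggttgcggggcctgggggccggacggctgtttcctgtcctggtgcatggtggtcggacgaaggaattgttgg
ZNF160, chr19:53103373-53103672, minus strand: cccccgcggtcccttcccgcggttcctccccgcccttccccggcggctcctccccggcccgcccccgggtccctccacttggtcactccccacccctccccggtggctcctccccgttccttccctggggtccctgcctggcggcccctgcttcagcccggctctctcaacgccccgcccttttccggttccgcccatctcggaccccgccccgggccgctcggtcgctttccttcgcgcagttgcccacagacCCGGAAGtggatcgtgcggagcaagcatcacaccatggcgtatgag
ZNF226, chr19:44164850-44165149, plus strand: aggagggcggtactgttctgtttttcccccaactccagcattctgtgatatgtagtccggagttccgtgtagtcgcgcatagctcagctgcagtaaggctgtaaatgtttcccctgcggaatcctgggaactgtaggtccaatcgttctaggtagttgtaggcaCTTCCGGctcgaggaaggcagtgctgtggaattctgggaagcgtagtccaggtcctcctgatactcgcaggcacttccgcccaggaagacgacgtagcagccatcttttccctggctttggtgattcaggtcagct
ZNF587, chr19:57849609-57849908, plus strand: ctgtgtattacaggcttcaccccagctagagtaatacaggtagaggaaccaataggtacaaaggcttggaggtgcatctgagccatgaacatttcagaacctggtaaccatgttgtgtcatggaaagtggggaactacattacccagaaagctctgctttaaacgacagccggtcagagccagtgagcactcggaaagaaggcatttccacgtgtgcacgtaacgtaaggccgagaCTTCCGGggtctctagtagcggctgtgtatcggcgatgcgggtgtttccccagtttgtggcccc
All 4 hold the core once, in ZNF160 just after the start and in the others before it.

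The ETS core is a short word bound by the ETS family of activators, and CCGGAAG on either strand was in 61 of 153 member promoters (39.9%). It was in 13 of 27 promoters (48.1%) of the KRAB members of chromosome 19 and in 38.1% of those of the other members. It was in 22.1% of the promoters of all genes of the filter and in 10.7% of all 27305 promoters in the table. Whether the core has a part in the rise was not tested. The core ACTACAA of the site of ZNF143 itself was in 8.5% of member promoters, against 4.3% for the filter and 2.95% for all. The GC box GGGCGG was in 69.3% of member promoters and 73.9% of those of the filter. YY1's AAGATGG was in 6.54% against 8.62%, NRF1's GCATGCG in 7.84% against 6.94%, and the CRE TGACGTCA in 5.23% against 3.64%. In the 27 promoters of KRAB members of chromosome 19 these shares were 11.1% for ACTACAA, 74.1% for GGGCGG, 14.8% for AAGATGG, 0% for GCATGCG and 7.41% for TGACGTCA, each a count of few promoters. All 6 words were searched on both strands, as letters only. A match is not a bound site.

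Along chromosome 19 the genes were grouped where neighbouring ZNF genes stood less than 1 Mb apart, and 5 groups held 3 or more members. Cluster 15, at 51571298 to 53580269, held 9 members, all with a KRAB box: ZNF616, ZNF766, ZNF480, ZNF83, ZNF600, ZNF28, ZNF468, ZNF160 and ZNF761. All 9 were above 0 in both lines, with medians of 0.56 (resistant) and 0.74 (parental), and 8 rose. ZNF28 had 10.1 and 11.3 FPKM in resistant and parental cells with EHMT2 siRNA, against 4.64 and 4.01 FPKM with control siRNA and 4.74 and 3.51 FPKM untransfected, a log2 change of 1.14 ± 0.15 (SE; adjusted p = 0.00232). The 9th, ZNF616, had ratios of 0.23 and 0.42.

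Cluster 16, at 55476332 to 58481230, held 12 members in 2 stretches. Its 5 KRAB members were ZNF264, ZNF776, ZNF587, ZNF544 and ZNF584, of which the first 3 rose. ZNF264 had 6.39 and 8.87 FPKM in resistant and parental cells with EHMT2 siRNA, against 3.45 and 2.49 FPKM with control siRNA and 2.68 and 2.29 FPKM untransfected. Its ratio was 0.73 in resistant and 1.498 in parental cells. Of the 7 members without KRAB, ZNF579 rose, with 13.9 and 21.2 FPKM with EHMT2 siRNA, against 6.70 and 9.13 FPKM with control siRNA and 7.70 and 5.61 FPKM untransfected, and ZNF581 and ZNF524 fell.

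The 3 other groups held fewer members that rose. In cluster 12, at 43525497 to 45076588, ZNF224, ZNF226 and ZNF227 rose, while ZNF45 had ratios of -0.08 and -0.28 and ZNF180 0.09 and 0.09. At 7069444 to 9793180, ZNF317 and ZNF121 rose and ZNF358 fell. At 11483427 to 12640098 all 3 members were above 0 in both lines, and ZNF791 rose, with ratios of 0.36 in resistant and 0.88 in parental cells.

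Sequence shared between relatives limits some of these values, since reads from one copy can be assigned to another. Of the members, 22 share at least 25% of their exonic bases with an overlapping gene, and 23 share at least 10% of their 50-base windows with other genes. ZNF468 shares 99.2% of its windows with other genes, and so its rise is uncertain. The 22 KRAB members of chromosome 19 under both limits had medians of 0.41 (resistant) and 0.61 (parental), and 11 of them rose and 0 fell.

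**Figure D4:**
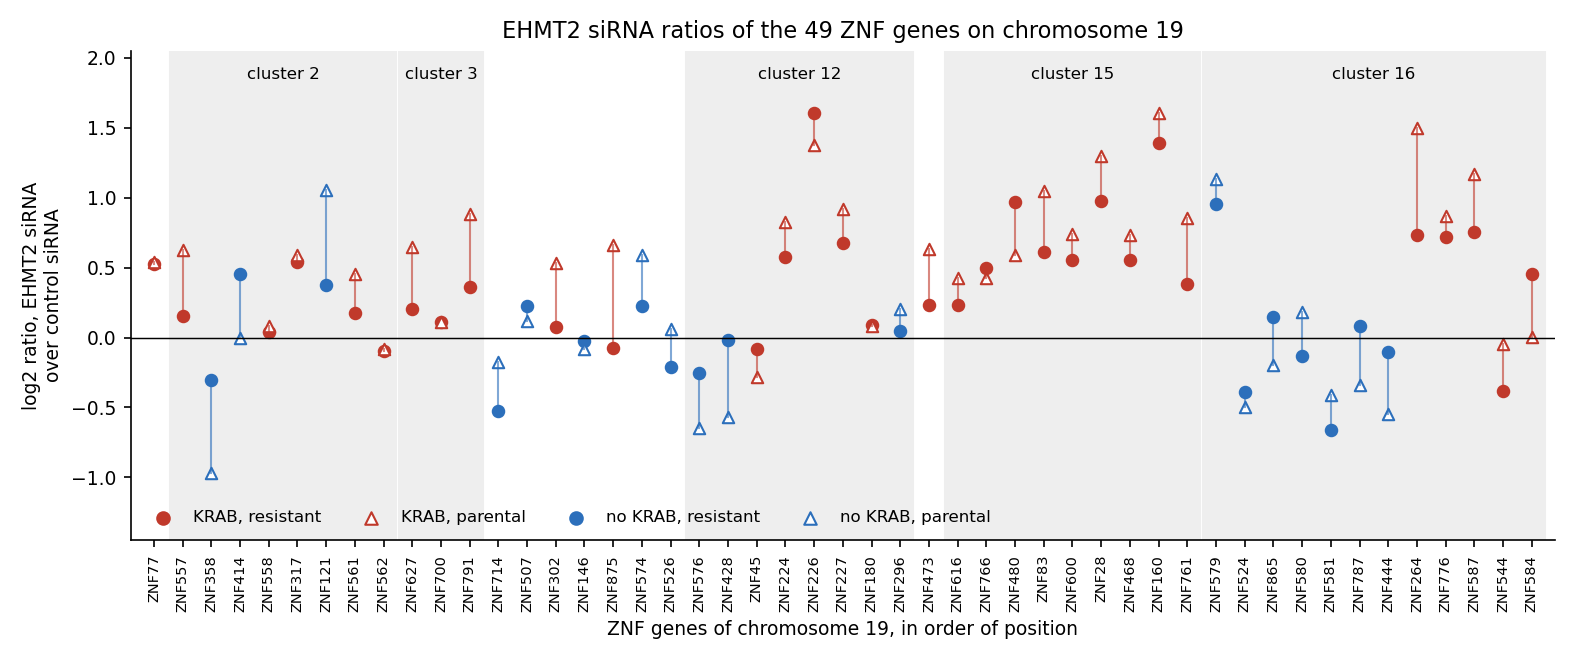
The 49 ZNF genes of chromosome 19 in order of position on the x axis, with the log2 ratio of EHMT2 siRNA over control siRNA on the y axis, filled circles for resistant and open triangles for parental cells. Grey bands mark groups of neighbouring ZNF genes. All 9 genes of cluster 15 lie above 0, while cluster 16 has ratios from -0.66 to 1.498.

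Among the 52 KRAB members of other chromosomes, ZNF394 had 9.81 and 11.6 FPKM in resistant and parental cells with EHMT2 siRNA, against 5.28 and 5.48 FPKM with control siRNA and 6.96 and 6.81 FPKM untransfected. It rose by a log2 change of 0.87 ± 0.14 (SE; adjusted p = 0.0041). ZNF343 and ZNF783 fell. ZNF783 had 3.37 and 3.55 FPKM with EHMT2 siRNA, against 6.31 and 5.32 FPKM with control siRNA and 6.402 and 6.01 FPKM untransfected, so that the EHMT2 siRNA libraries were the 2 lowest.

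A list drawn up for KRAB proteins of transposons and imprinted genes had 4 members, and the role of each was not checked here. ZNF587 rose, with 7.40 and 12.7 FPKM in resistant and parental cells with EHMT2 siRNA, against 3.98 and 5.09 FPKM with control siRNA and 4.55 and 3.91 FPKM untransfected. It shares 35% of its exonic bases with overlapping genes. ZNF202, ZNF33A and ZNF33B were not called, with ratios of 0.25 and 0.13 for ZNF202, -0.07 and 0.01 for ZNF33A and -0.06 and 0.44 for ZNF33B in resistant and parental cells.

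Among 13 members listed as activators and general regulators without a KRAB box, 6 rose and 2 fell. These shares of 46.2% and 15.4% stand against 23.8% and 18.7% of all genes. Median ratios were 0.16 (resistant) and 0.28 (parental). The list is mixed, and ZNF652, among those that rose, is a repressor. ZNF292, a large protein of 2723 residues, had 5.78 and 7.17 FPKM in resistant and parental cells with EHMT2 siRNA, against 2.58 and 2.68 FPKM with control siRNA and 4.26 and 2.38 FPKM untransfected. ZNF292 rose by a log2 change of 1.04 ± 0.15 (SE; adjusted p = 0.00314). ZNF367, a cell-cycle-linked factor, fell, with 4.60 and 4.33 FPKM with EHMT2 siRNA, against 6.43 and 8.01 FPKM with control siRNA and 7.44 and 5.51 FPKM untransfected. ZNF395 fell as well, with a log2 change of -0.43 ± 0.14 (SE; adjusted p = 0.0419).

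Among 18 members listed for chromatin and corepressor complexes, 3 rose and 2 fell (16.7% and 11.1%, both below the 23.8% and 18.7% of all genes), with medians of -0.01 and 0.09. ZNF335, a subunit of H3K4 methyltransferase complexes, rose by 0.53 ± 0.13, and ZNF516 is given above. ZNF532, which pairs with ZNF592 and ZNF687 in a complex with ZMYND8, had 3.35 and 2.99 FPKM in resistant and parental cells with EHMT2 siRNA, against 6.34 and 6.48 FPKM with control siRNA and 3.85 and 4.71 FPKM untransfected. It fell, with a log2 change of -0.83 ± 0.15 (SE; adjusted p = 0.00575), the lowest of all members, and in resistant cells the untransfected library lay nearer to EHMT2 siRNA than to control siRNA. ZNF609 fell too, and in resistant cells its untransfected value was also the nearer to EHMT2 siRNA, with 6.89 and 7.65 FPKM with EHMT2 siRNA, against 12.03 and 11.7 FPKM with control siRNA and 6.65 and 10.04 FPKM untransfected.

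Among 13 members listed for RNA, ribosomes and the spindle, 2 rose and 2 fell (15.4% each, below those shares), with medians of -0.03 and 0.07. ZNF622, a factor of ribosome assembly, rose by 0.49 ± 0.13, and ZNF106, an RNA-binding protein, by 0.58 ± 0.14. ZNF330, a nucleolar protein, and ZNF385A, a p53 cofactor also known to bind RNA, fell. ZNF385A had 12.3 and 19.6 FPKM in resistant and parental cells with EHMT2 siRNA, against 17.3 and 31.4 FPKM with control siRNA and 29.8 and 14.95 FPKM untransfected, so the groups overlap once the untransfected libraries are taken in.

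ZNF185 belongs to no list. It is a LIM-domain protein that binds actin, with 0 C2H2 fingers found, and it is a member only by its symbol. It had 13.6 and 21.6 FPKM in resistant and parental cells with EHMT2 siRNA, against 6.46 and 6.26 FPKM with control siRNA and 6.62 and 7.12 FPKM untransfected. Its log2 change was 1.30 ± 0.18 (SE; adjusted p = 0.00275).

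Sequence and position of the members that changed were counted as well. Of all 178 members 46.6% had a KRAB box and 27.5% lay on chromosome 19, with a median of 9 fingers, and of the 118 not called 45.8% and 22.9% did. Of the 47 that rose 27 had a KRAB box (57.4%) and 19 lay on chromosome 19 (40.4%), with a median of 10 fingers. Of the 13 that fell 2 had a KRAB box (15.4%) and 3 lay on chromosome 19 (23.1%), with a median of 4 fingers. Of the 47, 42 had both EHMT2 siRNA libraries above the other 4, and of the 13, 6 had both below. The calls came from 4 of these same 6 libraries, so the selection fixes these shares in part, and they are no support for the calls. All values of this paragraph are counts, with no test of the difference.

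Partners of the KRAB box were measured beside them. TRIM28 fell, with 88.5 and 118 FPKM in resistant and parental cells with EHMT2 siRNA, against 119 and 168 FPKM with control siRNA and 136 and 118 FPKM untransfected. SETDB1 was not called, with 17.9 and 18.4 FPKM with EHMT2 siRNA, against 15.6 and 18.3 FPKM with control siRNA and 15.1 and 14.7 FPKM untransfected. Of 24 partners that pass the same filter, 5 rose and 6 fell, with median ratios of -0.01 and 0.04. These shares of 20.8% and 25% lie near the 23.8% and 18.7% of all genes. Among the partners that fell was MORC2, a silencing ATPase, with a log2 change of -0.86 ± 0.16 (SE; adjusted p = 0.00668). It had 4.81 and 5.14 FPKM in resistant and parental cells with EHMT2 siRNA. With control siRNA it had 8.08 and 11.9 FPKM, and untransfected 5.73 and 7.98 FPKM. MORC3 rose by 1.15 ± 0.13 (SE; adjusted p = 0.00169), with 12.9 FPKM in both lines with EHMT2 siRNA. It had 5.64 and 4.91 FPKM with control siRNA and 8.62 and 7.63 FPKM untransfected. The filter left out SUV39H1 and ATF7IP2 of the same list, with log2 changes of -0.96 ± 0.15 and 0.75 ± 0.16. SUV39H1 stood at 0.98 FPKM in resistant cells with EHMT2 siRNA.

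Among other zinc finger families under the same filter, ZBTB, ZSCAN and ZKSCAN genes had medians between those of the KRAB members of chromosome 19 and the background, and ZFP genes did not. The 24 ZBTB genes had medians of 0.21 (resistant) and 0.42 (parental), with 9 that rose (37.5%) and 0 that fell. The 14 ZSCAN and ZKSCAN genes had 0.36 and 0.42, with 6 (42.9%) and 0. Of all genes 23.8% were called higher and 18.7% lower, and of the KRAB members of chromosome 19 54.8% and 0%. The 6 ZFP genes had -0.17 and -0.05, with 0 called in either direction.

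Between resistant and parental cells, few of these genes were apart. In the 6-library fit 0 members were called for the line, where 0% of all genes were, and 0 members had an unadjusted p under 0.05, where 603 genes of 11521 did. The median ratio of resistant over parental was -0.13 with EHMT2 siRNA, -0.04 with control siRNA and 0.06 untransfected, the last of which turned to -0.02 with median-centred ratios. On the FPKM + 1 scale 0 members were 2-fold apart with EHMT2 siRNA or with control siRNA, where 1.79% and 1.87% of genes were. On FPKM itself ZNF275, ZNF337 and ZNF707 were 2-fold lower in resistant cells with EHMT2 siRNA, and ZNF480 with control siRNA. Untransfected, 2 members were 2-fold apart on the FPKM + 1 scale, against 5.11% of genes, and 4 on FPKM itself, with ZNF83 and ZNF232 added. The 2 were ZNF337, with 5.69 FPKM in resistant and 2.07 in parental cells, and ZNF358, with 4.99 in resistant and 12.4 in parental cells. The line comparisons use the same 6 libraries as the knockdown comparisons.

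The 4-library fit called 6 members for the line, 1 higher and 5 lower in resistant cells, against 4.49% and 4.47% of all genes, so the shares are at or below the background. ZNF277 was higher, with a log2 change of 0.72 ± 0.15 (SE; adjusted p = 0.0348), and ZNF385A, ZNF692, ZNF598, ZNF600 and ZNF276 were lower, with changes from -0.73 to -0.55. All 6 had the opposite sign in the untransfected pair. ZNF277 had 10.2 and 6.66 FPKM in resistant and parental cells with EHMT2 siRNA, 12.5 and 6.29 FPKM with control siRNA, and 6.96 and 13.9 FPKM untransfected. ZNF598, a ubiquitin ligase that marks collided ribosomes, had 9.78 and 18.4 FPKM in resistant and parental cells with EHMT2 siRNA, 9.40 and 14.7 FPKM with control siRNA, and 16.2 and 13.2 FPKM untransfected. The calls rest on the transfected libraries.

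**Figure D5:**
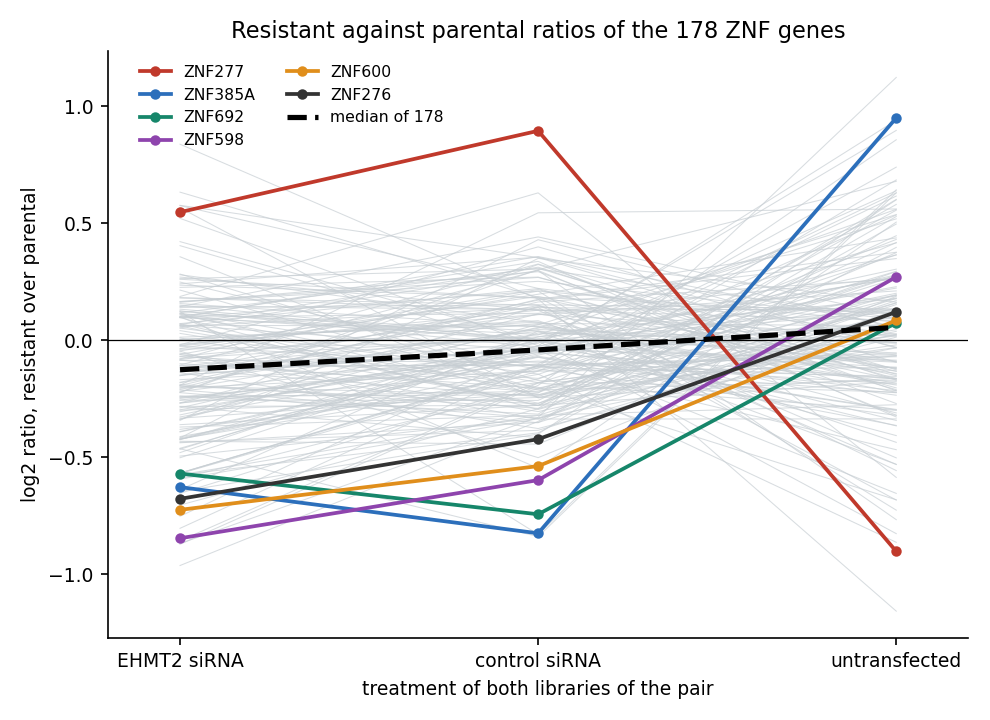
Log2 ratios of resistant over parental for the 178 ZNF genes, 1 line per gene, with the treatment shared by both libraries of the pair on the x axis. The 6 coloured genes were called in the fit to the 4 siRNA libraries, and each crosses 0 before the untransfected pair. The dashed median runs through -0.13, -0.04 and 0.06.

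Few members had all libraries of 1 line above all libraries of the other. All 3 resistant libraries lay above all 3 parental ones for ZNF562 and ZNF706, 1.12% of members against 3.04% of genes, and below them for ZNF74, ZNF296 and ZNF691, 1.69% against 1.99%. Both shares are under or near the background. ZNF706, a small zinc finger protein, had 33.5, 34.3 and 30.7 FPKM in resistant cells with EHMT2 siRNA, with control siRNA and untransfected, against 30.2, 24.99 and 28.5 FPKM in parental cells. ZNF74 had 2.54, 3.23 and 2.87 FPKM in resistant cells, against 3.58, 4.28 and 3.68 FPKM in parental cells, in the same order of treatments. A looser count takes the 3 pairs of like treatment. In all 3 of them 11 members (6.2%) were higher in resistant cells, against 14.8% of genes of the filter. Lower in all 3 were 22 members (12.4%), against 11.05% of those genes. By the size of the smallest of 3 ratios of 1 sign, the others farthest apart and higher in resistant cells were ZNF133, ZNF467, ZNF516 and ZNF33A. Those lower were ZNF286A, ZNF174, ZNF34, ZNF77 and ZNF518A, with ZNF286A the farthest of these at -0.18.

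Between control siRNA and untransfected cells few members were apart. On the FPKM + 1 scale 1 member was 2-fold apart in resistant cells, ZNF358 with a ratio of 1.08, against 5.84% of genes, and 4 in parental cells, against 2.37% of genes. Neither share of the 178 members exceeds the background. ZNF652, a repressor, was 1 of the 4 in parental cells, with 24.1 and 22.0 FPKM in resistant and parental cells with EHMT2 siRNA, against 8.53 and 15.9 FPKM with control siRNA and 11.2 and 6.80 FPKM untransfected. Its ratio of EHMT2 siRNA over control siRNA was 1.40 in resistant and 0.44 in parental cells, with the EHMT2 siRNA libraries nearly level and the control siRNA libraries apart.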

How the data were processed

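RNA of 6 HCT116 libraries was sequenced from TruSeq v2 preparations, per the labels' protocols, and the authors deposited 1 table of FPKM values per library. Build GRCh38 and the tools HISAT2 2.2.1, StringTie 2.1.1, cutadapt 4.9 and FastQC 0.12.1 are named in the submitters' processing notes. Annotation and strandedness were not given in the sources used here. A gene and its antisense partner therefore cannot be told apart. Tables were joined by gene, and the row of highest mean was kept per symbol. Low values show no whole-read steps, so depth and counting error are not known.

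Ratios are log2(FPKM + 1) differences between libraries. limma 3.58.1 (R 4.3.3), with a mean-variance trend, fitted line and treatment to 11521 genes that reached 1 FPKM in 3 libraries, with Benjamini-Hochberg adjustment over all of them at 0.05. The 6-library fit is the main one and leaves 2 residual degrees of freedom, and a fit to the 4 siRNA libraries leaves 1. The 6-library fit was tested on simulated data, and the 4-library fit, from which the calls of rose and fell come, was not. p-values measure only the spread between these libraries, which may be technical.

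Coordinates, overlaps and proteins come from GENCODE 29 (GRCh38). KRAB boxes were found with a profile in pyhmmer 0.12.3 (E-value at most 1e-05) in any protein of the gene, and fingers in the longest protein by pattern. Genes were named by rank: 8 highest and lowest by the smaller knockdown ratio of both lines, 6 by line, 3 by the difference between knockdown ratios, 5 of highest mean, 5 of smallest range, 3 on each side of the threshold, and the 2 extremes of each list. Members named beyond this, such as ZNF394, the neighbours on chromosome 19 and those called for line, were chosen after seeing their values. The members and gene lists were chosen with earlier results of these data known.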

Additional observations from a re-analysis of the deposited data

Results flagged for a closer look

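The ratio of EHMT2 siRNA over control siRNA went opposite ways in the lines for 3 of the 6 genes named for the largest differences between the lines, each from 1 library a group, and the difference was not tested. Smaller differences of opposite sign, such as that of ZNF286A, are not listed here. ZNF84, a KRAB gene, had ratios of -0.24 in resistant and 0.53 in parental cells, a difference of -0.772, with 2.90 and 3.94 FPKM with EHMT2 siRNA against 3.62 and 2.43 FPKM with control siRNA. ZNF875 had -0.07 in resistant and 0.66 in parental cells, a difference of -0.736. ZNF385B had 0.20 in resistant and -0.61 in parental cells, a difference of 0.811, with 4.69 and 2.84 FPKM with EHMT2 siRNA against 3.97 and 4.89 FPKM with control siRNA.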

How the results depend on the processing

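No paired analysis was possible because each group holds 1 library and all labels give the same replicate number, so a replicate block could not be fitted, although both fits hold line as a term. The 6-library limma fit called 0 members for EHMT2 siRNA, but 60 in the fit to the 4 siRNA libraries and 3 of 111 when genes had to reach 5 FPKM in 3 libraries. For line it called 0, and 6 in the 4-library fit. Leaving out 1 library at a time gave 0 to 60 members for EHMT2 siRNA and 0 to 6 for line. The highest counts came without either untransfected library, since its partner then informs no contrast and only the 4 siRNA libraries set the error.

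The parental knockdown median of 0.176 became 0.279 when libraries were rescaled to the same sum and 0.074 with quantile normalisation. It became 0.252 with members taken at a mean of 2 FPKM and 0.306 with ZNF genes at 1 FPKM in 1 library of the pair. Both of these looser filters can admit a gene through its EHMT2 siRNA values. Rescaling also gave 0.259 for resistant over parental untransfected and 0.224 for control siRNA over untransfected in parental cells. It moved the median of all genes of the filter by 0.113, 0.221 and 0.165 in these 3 pairs. The untransfected line median of 0.055 changed sign to -0.017 with median-centred ratios and -0.006 with quantile normalisation, and that of control siRNA over untransfected in parental cells, 0.084, to -0.002 at 5 FPKM in all libraries. The parental median of the KRAB members of chromosome 19, 0.634, became 0.772 with no pseudocount. All other medians, the others of that class included, moved by less than the spread between pairs of the same kind. The class of KRAB members of chromosome 19, its subsets and its wider set by mean FPKM, and the counts with no pseudocount, were chosen after seeing the data.

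Members 2-fold apart for EHMT2 siRNA numbered 5 in resistant cells. This became 12 with a pseudocount of 0.1, 9 after rescaling, 9 with members by mean, 2 at 5 FPKM in all libraries, 12 at 1 FPKM in 1 library and 32 at 1.5-fold. In parental cells 13 became 23, 21, 26, 5, 31 and 49 in the same order. For resistant over parental, untransfected, 2 became 4, 5, 6, 0, 10 and 25 in that order, and 0 without members sharing 25% of exonic bases. With control siRNA 0 became 1 with a pseudocount of 0.1 and 7 at 1.5-fold. With EHMT2 siRNA 0 became 3 with that pseudocount, 1 after rescaling, 2 by mean, 5 at 1 FPKM in 1 library and 18 at 1.5-fold. For control siRNA over untransfected in resistant cells 1 became 3 with that pseudocount, 2 with median-centred ratios or quantile normalisation, 5 by mean, 0 at 5 FPKM or without sharing members, 7 at 1 FPKM in 1 library and 19 at 1.5-fold. In parental cells 4 became 14 at 1.5-fold. The cause was not tested, beyond looser limits counting more genes by construction. With no pseudocount the counts were 12 and 25 for EHMT2 siRNA in resistant and parental cells, 4, 1 and 3 for resistant over parental untransfected, with control siRNA and with EHMT2 siRNA, and 3 for control siRNA over untransfected in resistant cells. Depth is unknown, so counting error of the low members is not in these values.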
